A study of Mus musculus with 4 samples.

Results

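The IWR-1-only calls are 1028 genomic intervals at which Smad1 was called with the Wnt inhibitor IWR-1 and in neither list of the vehicle control. They were chosen by their calls: an interval had to be listed by the peak caller QESEQ with IWR-1, overlap by 1 bp or more a peak listed by the caller MACS with IWR-1, and overlap no DMSO peak of either caller. Of 16261 QESEQ intervals with IWR-1, 4294 met a MACS peak, and 1028 of these 4294 lay outside both DMSO lists (23.9%). The other 3266 overlapped a DMSO peak and are called shared calls here. Since the choice itself rests on the contrast between the treatments, that count is a description and no test of it is given. The cells were day 4 embryoid bodies (EBs), aggregates of differentiating embryonic stem (ES) cells, from the GFP-Bry mouse ES line, labelled C57BL/6, in which GFP reports Brachyury. All cultures were dissociated on day 3, reaggregated and held for 24 h in the vehicle DMSO alone or in 10 µM IWR-1. Each treatment had 1 Smad1 chromatin immunoprecipitation (ChIP) library and 1 input library, so that a treatment and a library cannot be told apart, and no value below has a replicate error. EBs are mixtures of cell types, and a peak list does not separate a call in few cells from a weak call in many.

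Smad1 is a transcription factor of the bone morphogenetic protein (BMP) pathway. BMP receptors phosphorylate it, it then enters the nucleus with Smad4, and the complex binds short DNA elements, among them GC-rich ones, at targets such as the Id genes. IWR-1 stabilises Axin, the scaffold of the complex that destroys β-catenin, and so lowers canonical Wnt signalling. In that pathway Gsk3 phosphorylates β-catenin, and it can also phosphorylate Smad1 and mark it for degradation. Both pathways act in mesoderm, from which blood and heart arise. The study asked how IWR-1 alters Smad1 occupancy.

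The sample labels and the lists do not match throughout. The DMSO MACS list and the common sites are filed under the DMSO input, and the DMSO QESEQ list under the input with IWR-1. The DMSO lists were recognised as those from which the 10466 deposited common DMSO sites were made, and the QESEQ list of IWR-1 is filed as its labels say, under the ChIP with IWR-1. The MACS list used here for IWR-1 is named for IWR-1 but sits under the label of the DMSO ChIP, and it is assigned to IWR-1 because the other MACS list is the one behind the common sites. Of its 7815 peaks, 19.3% overlapped the IWR-1 QESEQ list without the DMSO one and 15.2% the reverse. For the 15927 peaks of the DMSO MACS list these shares were 5.81% and 44.0%. The second MACS list therefore met the IWR-1 intervals relatively more often than the DMSO MACS list did, though it met many DMSO intervals too. Without a MACS peak as a condition, 8595 intervals lay outside the DMSO lists in place of 1028. For the features of the members' sequence and position that moved when this list was not required, both values are given, a comparison in part chosen after seeing the data. Scores exist only where a MACS peak does.

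The central 200 bp of 8 IWR-1-only calls show what the intervals look like, on the plus strand of mm10. The first 5 were chosen to show the long runs of adenine (read as T where the run lies on the minus strand) that most of these calls hold. They are calls at or near St8sia4 (chr1:95668296-95668495), Gfi1 (chr5:107725950-107726149), Hoxb1 (chr11:96363841-96364040), Hoxd3 (chr2:74709597-74709796) and Smurf2 (chr11:106914702-106914901). The coding gene nearest to the call labelled Hoxd3 is Hoxd8. The other 3 hold no such run in this window: the call near Id1 (chr2:152744477-152744676), the call at the start of Chn1 (chr2:73775568-73775767), which holds both GC-rich Smad elements, and the call in Trpc6 (chr9:8553014-8553213), which is the member with the palindromic Smad element in its central 200 bp. Capitals mark runs of 7 or more A or T, the GC-rich Smad elements GGCGCC or GGAGCC, the palindromic GTCTAGAC with the shorter Smad element CAGACA, and the TCF/LEF elements CTTTGAT or CTTTGTT, on either strand.
St8sia4: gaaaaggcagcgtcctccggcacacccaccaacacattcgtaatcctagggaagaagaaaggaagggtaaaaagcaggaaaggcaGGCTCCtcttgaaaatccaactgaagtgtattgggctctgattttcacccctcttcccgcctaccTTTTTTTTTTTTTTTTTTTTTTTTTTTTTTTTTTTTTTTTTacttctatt
Gfi1: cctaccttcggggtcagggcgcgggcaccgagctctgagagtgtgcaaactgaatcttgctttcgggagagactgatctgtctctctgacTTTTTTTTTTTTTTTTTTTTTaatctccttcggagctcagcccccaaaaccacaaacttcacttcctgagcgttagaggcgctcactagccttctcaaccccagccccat
Hoxb1: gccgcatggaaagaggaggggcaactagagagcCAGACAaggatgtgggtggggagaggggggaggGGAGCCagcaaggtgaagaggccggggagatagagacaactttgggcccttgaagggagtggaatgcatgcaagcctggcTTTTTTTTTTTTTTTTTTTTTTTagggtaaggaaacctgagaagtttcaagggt
Hoxd3: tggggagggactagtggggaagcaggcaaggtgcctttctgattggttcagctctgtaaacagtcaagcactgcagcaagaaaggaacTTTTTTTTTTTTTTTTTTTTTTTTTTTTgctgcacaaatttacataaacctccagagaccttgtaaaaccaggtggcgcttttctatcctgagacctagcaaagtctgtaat
Smurf2: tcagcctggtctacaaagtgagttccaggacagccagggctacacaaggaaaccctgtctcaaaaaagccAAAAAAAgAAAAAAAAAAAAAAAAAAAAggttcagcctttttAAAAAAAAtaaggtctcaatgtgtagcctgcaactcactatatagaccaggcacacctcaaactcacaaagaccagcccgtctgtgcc
Id1: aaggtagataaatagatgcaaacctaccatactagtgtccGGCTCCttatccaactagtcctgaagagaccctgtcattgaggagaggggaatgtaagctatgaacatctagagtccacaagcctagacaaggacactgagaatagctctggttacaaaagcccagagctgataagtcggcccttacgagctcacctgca
Chn1: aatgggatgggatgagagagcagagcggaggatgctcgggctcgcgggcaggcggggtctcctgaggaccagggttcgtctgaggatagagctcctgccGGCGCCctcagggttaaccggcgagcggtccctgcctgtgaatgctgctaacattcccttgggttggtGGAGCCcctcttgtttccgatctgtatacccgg
Trpc6: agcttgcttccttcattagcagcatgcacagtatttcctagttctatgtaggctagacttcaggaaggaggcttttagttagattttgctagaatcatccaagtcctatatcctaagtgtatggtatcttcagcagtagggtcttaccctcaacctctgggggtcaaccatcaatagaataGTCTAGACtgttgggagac

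The IWR-1-only calls were weak peaks. MACS gives each peak a score of −10 times the log10 of its p-value, so that its cutoff of 1e-05 corresponds to a score of 50. The IWR-1 MACS scores of the members ran from 50.0 to 172, with a median of 59.5 (95% interval of the median 58.7–60.3) and quartiles of 54.4 and 69.0. Shared calls had a median of 67.2 (66.2–68.0) and reached 2331. A score of 100 or more was held by 13 of the 1028 members (1.26%, 95% exact binomial confidence interval 0.675–2.15) and by 547 of the 3266 shared calls (16.7%, 15.5–18.1). No member reached a score of 200, and 3 calls, taken as the most that a count of 0 allows, would be 0.292% (the exact interval reaches 0.358%), whereas 7.84% of the shared calls did. These intervals cover counting error over regions only, and the depth at a peak is unknown, since no counts of reads accompany the lists. The QESEQ lists hold no score.

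The share of calls that lay outside the DMSO lists was lower at higher scores, as the plot of 10 equal groups of calls shows. In the lowest of these groups, 144 of 430 were IWR-1-only (33.5%, 29.0–38.2). The share was 25.1% in the group from 69.8 to 75.6 (21.1–29.5) and 11.7% in that from 85.2 to 114 (8.78–15.1). In the highest group, with scores of 114 and over, 2 of 430 calls were IWR-1-only (0.465%, 0.0564–1.67). The interval of the highest group overlapped none of the others. Members were also slightly narrower than shared calls, with a median QESEQ width of 377 bp (368–386) against 406.5 bp (399–411), and 3 of them were under 100 bp wide. The callers placed their peaks alike in both classes: 932 of 1028 members and 2952 of 3266 shared calls had QESEQ and MACS peaks that each covered at least 50% of the other.

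**Figure D1:**
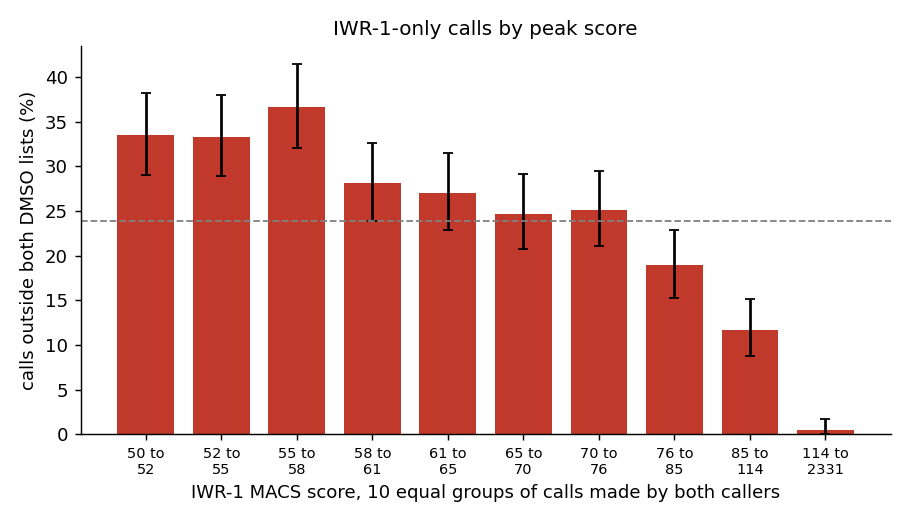
Share of calls outside both DMSO lists (%, vertical axis) in 10 equal groups of the 4294 calls made by both callers, ordered by IWR-1 MACS score (horizontal axis); bars are shares, whiskers 95% exact binomial intervals over regions, and the dashed line is the share over all 4294 calls (23.9%). The share is 33.5% in the lowest group and 0.465% in the highest.

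Few members had a DMSO peak within 500 bp, and distances from random positions were not measured. The smallest distance between a member and a DMSO peak was 107 bp, the median was 22.6 kb and the largest was 1126 kb. Distances were taken from the QESEQ interval, and no MACS peak of a member overlapped a DMSO peak either. Of the 1028 members, 16 had a DMSO peak within 500 bp (1.56%, 0.892–2.52), 280 within 10 kb (27.2%, 24.5–30.1) and 907 within 100 kb (88.2%, 86.1–90.1). Without the MACS requirement, the median was 20.0 kb and 31.6% had one within 10 kb (30.6–32.5). The shared calls, measured to the next DMSO peak that did not overlap them, had a median distance of 17.4 kb, with 2.73% within 500 bp (2.19–3.34) and 35.4% within 10 kb (33.8–37.1). A DMSO peak within 10 kb, other than one that overlapped the call, was thus less frequent for members than for shared calls. Both classes were chosen by their DMSO peaks, so this difference is a description and was not tested. The distance to the nearest of the common DMSO sites had a median of 66.6 kb. The members were scattered: of 1007 neighbouring pairs on a chromosome, 4 had centres under 10 kb apart, and the median spacing was 1470 kb.

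**Figure D2:**
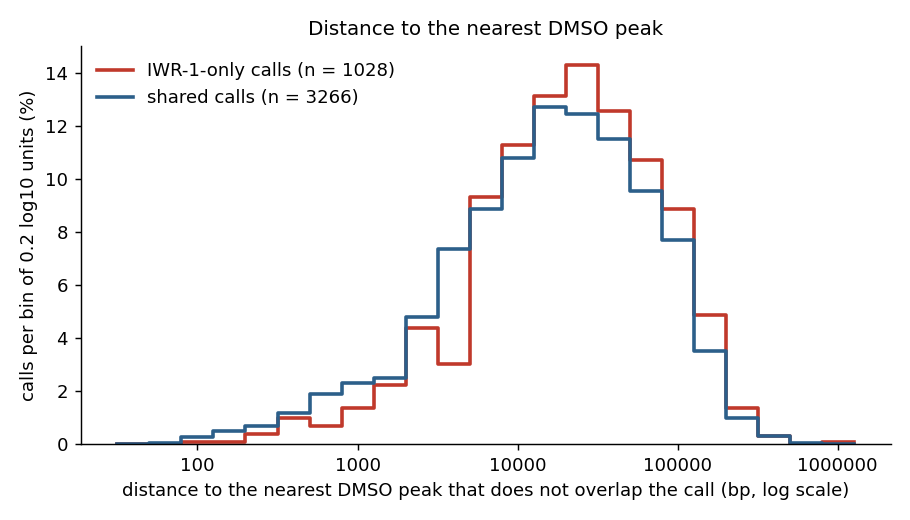
Distance from each call to the nearest DMSO peak that does not overlap it (bp, logarithmic horizontal axis), for the 1028 IWR-1-only calls and the 3266 shared calls; the vertical axis is the percent of calls in each bin of 0.2 log10 units. The median lies at 22.6 kb for the IWR-1-only calls and at 17.4 kb for the shared calls.

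At the edge of the rule, the 3 members nearest to a DMSO peak were an intergenic call nearest to Gm572 with a score of 67.0 and a gap of 107 bp, a call in intron 1 of Megf11 with a score of 95.9 and a gap of 138 bp, and a call in intron 1 of Smurf2 with a score of 56.5 and a gap of 220 bp. On the other side, the shared calls near Ctr9 and 2410141K09Rik overlapped a DMSO QESEQ peak by 3 and 14 bp and had scores of 53.2 and 52.6.

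Most members lay far from promoters. By GENCODE M21, the centre of 489 members was intergenic (47.6%, 44.5–50.7), that of 436 lay in an intron of a coding gene (42.4%, 39.4–45.5), that of 69 in a noncoding gene or pseudogene (6.71%), that of 23 in a noncoding exon of a coding gene (2.24%) and that of 11 in coding sequence (1.07%). Shared calls were spread alike, with 50.3% intergenic (48.6–52.0) and 38.5% in introns (36.8–40.2). A transcription start site of any gene lay within 1 kb of 94 members (9.14%, 7.45–11.1) and of 497 shared calls (15.2%, 14.0–16.5). Windows 2 kb to either side of the members gave 10.3% (8.98–11.7), so that members were no closer to start sites than their own surroundings, while windows beside shared calls gave 11.4% (10.6–12.2). At start sites of coding transcripts the shares were 4.28% (3.13–5.70) for members and 9.40% (8.42–10.5) for shared calls. No member overlapped a tRNA gene, with the same limit of 0.292% for 3 calls and an exact upper bound of 0.358%, whereas 225 shared calls did (6.89%, 6.04–7.81). Without these 225, the shared calls still had a start site within 1 kb in 14.4% (13.2–15.7).

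The gap at start sites differed between bins of the score, without a steady trend. Among calls with a score of 85 or over, 205 of 811 shared calls lay within 1 kb of a start site (25.3%, 22.3–28.4) and 6 of 53 members did (11.3%, 4.27–23.0), with intervals that overlap slightly. With scores from 50 to 55, 9.41% of 287 members (6.29–13.4) and 9.23% of 574 shared calls (6.99–11.9) did. In the bins from 55 to 60 and from 60 to 70, members had 6.83% (4.03–10.7) and 7.91% (4.90–11.9) against 12.7% (9.80–16.0) and 12.5% (10.2–15.0) of shared calls, and from 70 to 85 the shares were 12.9% and 13.0%. In the 4 bins below 85 the intervals of both classes overlapped. The bin of 85 and over has no upper end, so that its classes did not have like scores. How much of the overall gap the score accounts for was not tested.

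**Figure D3:**
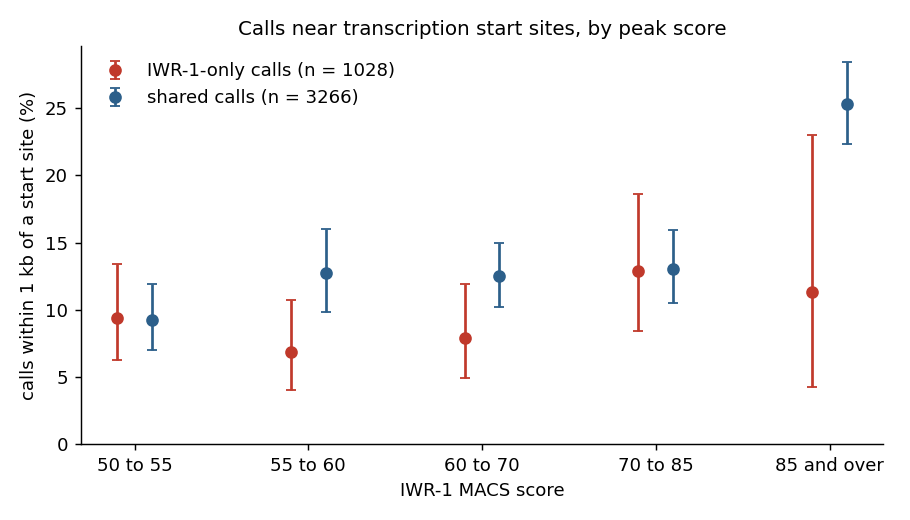
Share of calls within 1 kb of a transcription start site (%, vertical axis) in 5 bins of the IWR-1 MACS score (horizontal axis), for IWR-1-only and shared calls; points are shares and whiskers 95% exact binomial intervals over regions. The largest gap is at scores of 85 and over, with 11.3% of 53 IWR-1-only calls and 25.3% of 811 shared calls.

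Of the 44 members at coding start sites, 26 were centred before the start site and 32 held a run of 7 or more A or T in their central 200 bp (72.7%, 57.2–85). At the coding start sites of shared calls this share was lower, with 124 of 307 (40.4%, 34.9–46.1). The classes also differed in score: within 1 kb of any start site the median was 61.4 for members and 76.8 for shared calls. Of the 307 shared calls, 277 lay outside tRNA genes. The part of score and of tRNA genes in the difference in runs was not tested. The highest score among the 44 belonged to the call 825 bp before the start of St8sia4, an enzyme that adds polysialic acid to neural cell adhesion molecule, with a score of 105 and a run of 41. Of the other high scores at coding start sites, 4 are named here, chosen after their values had been seen. The call at Aebp2, a cofactor of Polycomb repressive complex 2, had a score of 93.4 and lay 671 bp before a coding start site. The call in intron 1 of Sema6c, a transmembrane semaphorin, had a score of 87.3 and lay 363 bp after the start. The call at Has2, a hyaluronan synthase that the heart cushions need, had a score of 84.4 and lay 755 bp before the start. The call at Chn1, which encodes the Rac regulator α-chimaerin, had a score of 74.7 and was centred 322 bp before the start. Its central 200 bp, printed above, held GGCGCC and GGAGCC, had 62.5% GC and no run of 7, and the nearest DMSO peak was 2.44 kb away. Among the 10 highest scores at coding start sites, each had a run of 15 or more within 500 bp of its centre, and 2 held GGCGCC or GGAGCC in the central 200 bp.

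Adenine runs were the feature that most members held. Homopolymer tracts of this length stand at the tails of retrotransposed elements, such as the SINE B1, a short interspersed repeat of rodents. In the central 200 bp, 65.5% of members held a run of at least 7 A or T (62.5–68.4), against 15.1% of windows 2 kb away (13.6–16.7). A run of at least 20 was held by 458 members (44.6%, 41.5–47.7) and by 0.875% of the windows (0.520–1.38). Within 500 bp of the centre, 858 members had a run of at least 15 (83.5%, 81.0–85.7), against 7.68% of equal windows centred 2 kb away (6.57–8.92). Shared calls gave nearly the same shares, with 63.9% for a run of 7 (62.2–65.5) and 82.2% for a run of 15 within 500 bp (80.9–83.5). When the disputed MACS list was not required, 38.4% of the 8595 IWR-1 calls outside the DMSO lists held a run of 7, 22.2% one of 20 (21.3–23.0), and 47.0% had a run of 15 within 500 bp (45.9–48.0). The shares for members therefore depend on that list. The input libraries went into the calls as controls, and the lists hold no input signal. Whether reads at such runs gave rise to calls was not tested.

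The runs differed in length between the classes. A run of at least 30 was held by 136 members (13.2%, 11.2–15.5) and by 757 shared calls (23.2%, 21.7–24.7). Without the MACS requirement the share outside the DMSO lists was 4.07% (3.66–4.51). The intervals of members and shared calls did not overlap in any of the 4 score bins below 85. From 50 to 55 it was 9.06% of members (6.00–13.0) and 18.1% of shared calls (15.1–21.5), and from 60 to 70 it was 13.4% (9.49–18.3) and 28.1% (24.9–31.4). With scores of 85 and over, where shared calls included most of the strong peaks, it was 30.2% of 53 members (18.3–44.3) and 18.2% of 811 shared calls (15.6–21.1), with overlapping intervals. The share with a run of 7 varied little with the score among members, from 58.5% of those at 85 and over (44.1–71.9) to 67.7% of those from 70 to 85 (60.5–74.4). Among shared calls it was close to 70% in each bin below 85 and 43.8% at 85 and over (40.3–47.3). Members with a run in the central window had a median score of 59.5 and those without one 59.4, with overlapping intervals (58.6–60.4 and 57.9–61.6). Among shared calls the medians were 65.2 with a run and 73.9 without.

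The runs lay to one side of the peaks. Read on the strand where the run is A, the longest run of at least 15 within 500 bp lay before the centre of the call at 672 of 858 members (78.3%, 75.4–81.0), with a median offset of −62 bp (−70 to −57) and quartiles of −129 and −8 bp. Without the MACS requirement it was 2758 of 4037 calls (68.3%, 66.9–69.8). Shared calls gave 77.1% (75.5–78.7) and a median of −59 bp (−62 to −54). The run of A was on the plus strand at 411 of the 858 members. In the printed sequences this can be seen at St8sia4 and Hoxb1, where the run is T and lies after the centre. At Gfi1 and Hoxd3 the run lies over the centre, and at Smurf2 the window holds 3 runs of 7 or more. Among members centred in introns, the run was A on the strand of the gene at 147 of 366 (40.2%, 35.1–45.4), and 38.2% of shared calls in introns were so placed (35.3–41.1).

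**Figure D4:**
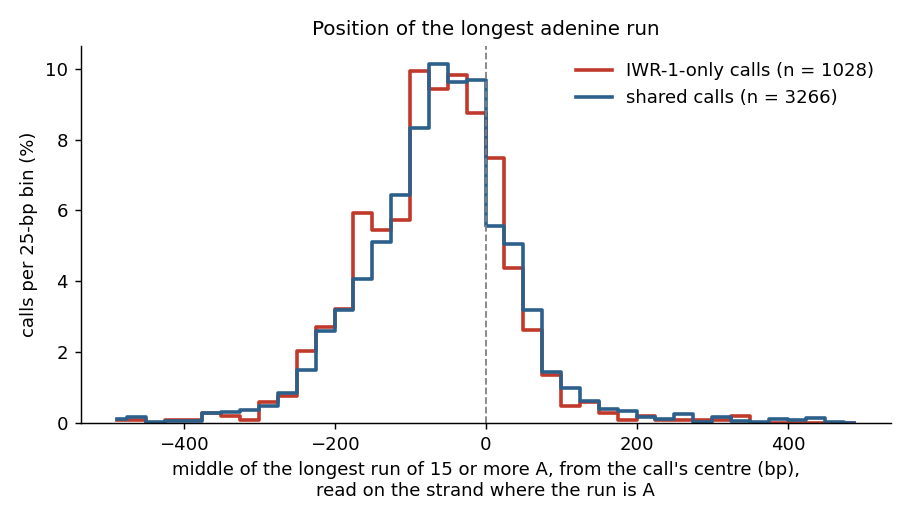
Position of the longest run of 15 or more A within 500 bp of the centre of a call (bp, horizontal axis; 0 is the centre and negative values lie before it on the strand where the run is A), as percent of all calls per 25-bp bin (vertical axis), for IWR-1-only and shared calls. Both curves lie mostly before the centre, with medians of −62 bp and −59 bp.

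Repeats were also frequent at the members. Soft-masked bases, which NCBI marks as repeats, made up a median of 39.0% of the central 200 bp of members (36.5–42.0), 32.5% without the MACS requirement, and 21.5% of the windows 2 kb away (19.5–23.0). The part of the adenine runs themselves in this share was not tested. The letters CTTTAATCC, which occur near the start of SINE B1, stood in the whole interval of 148 members (14.4%, 12.3–16.7) and in 3.60% of equal windows 2 kb away (2.84–4.50). At 138 of these 148 members a run of at least 7 A began within 200 bases after the letters on the same strand (93.2%, 87.9–96.7), at a median distance of 111 bases. Shared calls again were close, with 14.0% (12.8–15.2). The call in Smurf2 is such a case, with 87.5% of its central bases masked.

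Elements of Smad1 and of the Wnt pathway's own factors were no more frequent in the members than beside them. GGCGCC or GGAGCC, the GC-rich elements of BMP-responsive Smads, stood in the central 200 bp of 90 members (8.75%, 7.10–10.7), in 10.5% of windows 2 kb away (9.21–11.9) and in 10.3% of shared calls (9.32–11.4). CAGACA, which holds the AGAC core that Smads bind, was found in 15.8% of members (13.6–18.1) and in 17.9% of their windows (16.2–19.6). CTTTGAT or CTTTGTT, elements of the TCF/LEF factors through which β-catenin acts, was found in 7.98% (6.39–9.80) and 9.97% (8.71–11.3). AGATAA, the element of GATA factors of blood and heart, was found in 9.73% (7.98–11.7) and 12% (10.6–13.4). In each pair the intervals overlapped. GGGCGG, the Sp1 element of GC-rich promoters, was found in 1.85% of members (1.12–2.87) and 4.47% of shared calls (3.79–5.24), whose intervals did not overlap. In windows 2 kb away GGGCGG was found in 3.02% beside members (2.32–3.85) and 3.64% beside shared calls (3.20–4.13). Each of these intervals overlapped that of its calls. Median GC content was 40.5% in members and in shared calls, and 43.0% in the windows 2 kb from members (42.5–43.5). Members and their windows thus differed in composition, and the part of this in the element shares was not tested. The ratio of observed to expected CpG was 0.163 in members (0.150–0.174) and 0.211 in shared calls (0.202–0.222). Over the whole call, GGCGCC or GGAGCC occurred in 15.4% of members (13.2–17.7) and 21.2% of shared calls (19.8–22.7), without overlap. Their equal windows 2 kb away gave 17.9% (16.3–19.7) and 20.5% (19.5–21.5). Shared calls were also wider, and the part of width in this difference was not tested. All letters were searched on both strands, GGCGCC and GGAGCC cannot cover the same bases in full but may overlap, and a match is only a match of letters.

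**Figure D5:**
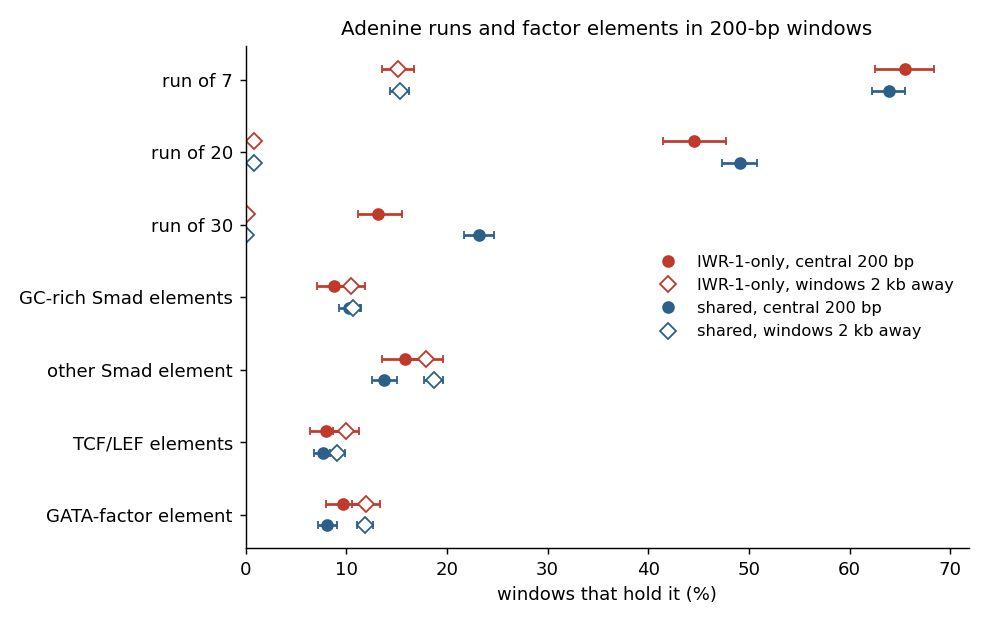
Share of 200-bp windows that hold a run of A or T of at least 7, 20 or 30 bases or an element of Smad, TCF/LEF or GATA factors (%, horizontal axis), for IWR-1-only and shared calls; filled circles are the central 200 bp, open diamonds windows 2 kb to either side, and whiskers 95% exact binomial intervals over regions. Runs stand far to the right of their windows (65.5% against 15.1% for a run of 7 in IWR-1-only calls), and the elements do not.

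The 8 members with GGCGCC or GTCTAGAC in the central 200 bp had scores from 51.9 to 75.4. GGCGCC stood in the calls near Ipo5, Chn1, Edem1, Rin2, Ero1lb, Ubtd2 and Meox1. The call at Ero1lb, an oxidase of the endoplasmic reticulum, covered exon 5 of 16 and its centre was coding. The call near Meox1, a homeobox gene of somite mesoderm, lay 32.8 kb before the start, held a run of 26 and had a score of 54.0. GTCTAGAC stood in the call in intron 1 of Trpc6, a calcium-permeable channel, which had a score of 51.9 and a nearest DMSO peak 22.8 kb away. Of the 8 calls, 6 had a run of 15 or more within 500 bp.

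The 20 highest scores among the members ran from 95.8 to 172. Of these 20 calls, 13 were intergenic, 12 had no coding gene within 10 kb, and 18 had a run of 15 or more within 500 bp of the centre. The highest belonged to a QESEQ interval of 28 bp on chromosome 2, from 46225720 to 46225747, which lay 1108 kb from Zeb2, a Smad-interacting repressor of epithelial genes, and had no run of 15 or more within 500 bp. The next, with a score of 119, spanned 1017 bp on chromosome 13 from 93244027 to 93245043, 52.1 kb before Tent2, a cytoplasmic poly(A) polymerase, and held a run of 38 at its centre. Calls of this group near genes included those in introns of Gm3618, Tmx3, Plppr4 and Megf11, the call before St8sia4, and those 3.10 kb before Tmem94 and 6.64 kb from Ubxn1. Of 10 more calls, the nearest coding genes were Gtf2f2, Cdh6, Ldah, Nts, Klf14, Tmem114, Bbs10, Cntnap5a, Tyrp1 and Efnb2, at 13.5 kb to 1488 kb. Efnb2, the ephrin ligand of arterial endothelium, was the farthest. None of the nearest genes named here belongs to the BMP, Wnt, mesoderm, heart or blood lists used below. All lists together hold only 338 of 22028 coding genes. Their absence among so few nearest genes is therefore near that background and is no result about the highest scores.

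Of 22028 coding genes, 745 had the centre of a member within 10 kb of the gene (3.38%), and 2369 had that of a shared call (10.8%). A shared call was also present at 169 of the 745 (22.7%, 19.7–25.9), and a DMSO peak of either list lay within 10 kb of 572 of them (76.8%, 73.6–79.8), against 53.3% of all coding genes. The 745 genes were long, with a median of 50.6 kb against 17.3 kb over all coding genes and 36.0 kb for genes with a shared call, and the part of length in these shares was not tested. Most genes with a member had 1, and 21 had 2 or more. Conversely, 408 of the 1028 members had no coding gene within 10 kb (39.7%, 36.7–42.8).

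Among 338 listed genes of the signals and lineages at issue, 22 had a member within 10 kb (6.51%, against 3.38% of all coding genes), through 19 calls. A shared call was held by 41 (12.1%, against 10.8% of all coding genes). A call can count for several listed genes, and 6 of the 22 are Hox genes near 2 calls. These shares are therefore not read as an enrichment, and 3.38% is also the background for each list below. The scores of the 19 calls ran from 50.4 to 82.5 with a median of 58.0. Of BMP ligands and receptors, 1 of 20 had a member: the call of score 50.4 beyond the 3′ end of Acvr1, a type I BMP receptor, 221 bp outside the gene. Of Smads and BMP feedback genes, 3 of 27 had one. The call near Id1, an inhibitor of basic helix-loop-helix factors that BMP induces, lay 8.33 kb after the start and had a score of 58.0, 1 GGAGCC, no run of 7 in the central window and a run of 22 within 500 bp. Smurf2, a ubiquitin ligase that marks Smads and BMP receptors, had a call of score 56.5 in intron 1, 5.67 kb after the start of its main transcript. Bambi, a pseudoreceptor that damps BMP signals, had a call of score 71.9 that lay 8.78 kb beyond its end and held a run of 28.

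Of Wnt ligands and receptors, 1 of 43 had a member, Wnt9b, a ligand, with a call of score 53.8 lying 7204 bp before the start. Of Wnt transducers, targets and antagonists, 3 of 44 had one. Bcl9, a coactivator of β-catenin, had a call of score 58.3 within the gene, 31.8 kb before the start of its main transcript. Csnk1a1, casein kinase 1α of the destruction complex, had a call of score 57.9 in intron 2. The call of score 54.9 counted for Apc2, a relative of the scaffold Apc, lay in an intron of Dazap1, 9.32 kb from Apc2. Of Nodal, activin and FGF genes, 3 of 25 had one: Spry1 and Spry4, inhibitors of FGF signalling, with scores of 50.5 and 59.7, and Fgfr2. Fgfr2 is counted through 3 calls with scores of 82.5, 59.4 and 57.2, which lie 923 kb or more before its main transcript, within an annotated gene model that runs over its neighbours 5430419D17Rik, Eef1akmt2 and Abraxas2.

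No member lay at any of 24 primitive streak and mesoderm genes or of 22 pluripotency genes, of which 3 and 2 had a shared call. With a member at 3.38% of all coding genes, a count of 0 in lists of this size is near that background and is no result about these genes. Of 31 cardiac genes, Myh6 and Myh7, the cardiac myosin heavy chains, shared 1 call of score 63.8 in intron 34 of Myh7. Of 41 blood and endothelial genes, 2 had one. Gfi1, a repressor in blood stem cells and granulocytes, had a call of score 53.1 at chromosome 5 from 107725888 to 107726212, centred 14 bp before a coding start site and 1.71 kb before that of the main transcript, over a run of 21. It lay 66.2 kb from the nearest DMSO peak. Fosb, an AP-1 subunit, had a call of score 75.8 lying 5.61 kb beyond its end. Of 29 ectoderm and endoderm genes, Ttr, the thyroid hormone carrier of visceral endoderm, had a call of score 62.3 lying 9.44 kb before the start.

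The Hox genes, which pattern the body axis, had the largest share of the 11 lists, but from 2 calls. It was 6 of 39 (15.4%, against 3.38% of all coding genes). The call on chromosome 11 from 96363805 to 96364076, with a score of 53.3, lay 1.81 kb before the start of Hoxb1 and 9.93 kb beyond Hoxb2. Its window held GGAGCC, a run of 23 and the shorter Smad element CAGACA. The call on chromosome 2 from 74709332 to 74710061, with a score of 61.0, lay in the noncoding gene Hoxd3os1, over a run of 28. It was within 10 kb of the annotated genes Hoxd3, Hoxd4, Hoxd8 and Hoxd9. For Hoxd3 and Hoxd4 this holds only through long gene models. The starts of their main transcripts lay 29.9 kb and 12.3 kb away. No Hox gene had a shared call within 10 kb, against 10.8% of all coding genes, and 23 of the 39 had a DMSO peak there (59.0%, against 53.3% of all coding genes). Over all 19 calls at listed genes, 14 had a run of 15 or more within 500 bp, and 3 held GGCGCC or GGAGCC in the central 200 bp.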

How the data were processed

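Single-end reads of the 4 libraries had been aligned by the authors to mm10 with Bowtie2 2.1.0 after CASAVA 1.8, and PCR duplicates removed. Peaks were called per treatment with MACS 1.0.1 (p-value cutoff 1e-05; tag size, bandwidth and model fold of 51, 300 and 32) and QESEQ (settings 100 and 15, cutoff 0.05; version not given in the sources used here). The score used here is the MACS score the authors deposited with each peak, compared only within a list. QESEQ lists hold positions alone.

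List positions were read as counted from 0 and printed counted from 1. A member's score is the highest among the MACS peaks it overlaps. Gene models were those of GENCODE M21; sequence, masking and tRNA genes were those of NCBI's GRCm38, whose chromosome lengths every interval fits. As main transcript served the coding transcript annotated as principal, or the lowest-numbered of several. Shares carry 95% exact binomial (Clopper-Pearson) intervals and medians order-statistic ones. Of 340 listed genes, 338 matched a symbol.

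Genes named are the nearest coding genes of the 20 highest scores, every listed gene with a member within 10 kb, the 3 calls at either edge of the rule, and at most 10 members with GGCGCC or GTCTAGAC; the promoter calls were added after their values were seen, and 2 calls that the rule names are not reported here. The members and lists were chosen with earlier results of these data known. The steps were run in Python 3.11.15 (scipy 1.17.1, numpy 2.4.6, pandas 2.3.3; matplotlib 3.10.9 for plots; pysam 0.24.0 for sequence) and were tested on simulated data.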

Additional observations from a re-analysis of the deposited data

How the results depend on the processing

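With 1 library per treatment, every result is a description of these libraries, and depth per peak is unknown. Of 40 recomputed values, 30 stayed within the interval of the value reported (counts within 1.5 times) and 10 moved. Without the MACS requirement, 8595 IWR-1 intervals lay outside the DMSO lists and 38.4% of them held a run of 7. A score of at least 60 left 492 calls with a median of 69.6, by construction. Start sites within 5 kb were found for 32.8% of the members, and coding start sites within 1 kb for 4.28%. A run of 7 anywhere in the interval was held by 78.0%, and a run of 10 in the central window by 60.3%. GC-rich Smad elements stood in 15.4% of whole intervals. Members lay within 50 kb of 7.88% of coding genes. These 8 wider or narrower definitions move the value by their construction. Requiring 50% overlap of the callers, no DMSO peak within 500 bp or 10 kb, autosomes and X alone, or no tRNA gene left each of the 5 values over the members within its interval. Of 13 further shares recomputed without the MACS requirement, chosen after seeing the data, 8 stayed within the interval of the value reported and 5 moved: those with a run of 20, a run of 30 or a run of 15 within 500 bp, that of runs before the centre, and that with a DMSO peak within 10 kb. No paired analysis was possible because each treatment has 1 ChIP library.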

Other observations

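Calls of QESEQ with IWR-1 that met no MACS peak and lay outside both DMSO lists numbered 7567. A run of at least 7 A or T stood in the central 200 bp of 34.7% of them (33.6–35.8), against 65.5% of the 1028 members. A start site lay within 1 kb of 8.74% (8.11–9.39), close to the 9.14% of members. By chromosome, the members' share of the calls made by both callers ran from 15.8% on chromosome 13 (41 of 259, 11.6–20.9) to 28.4% on chromosome 1 (86 of 303, 23.4–33.8) among autosomes, and 7 of 22 calls on the X chromosome were members (13.9–54.9).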
